A study of Mus musculus with 8 samples.

Results

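The 9 genes described here encode the proteins that sense, carry, make and break down γ-aminobutyric acid (GABA): the GABA-B receptor subunits Gabbr1 and Gabbr2, the GABA-A receptor subunits Gabra3 and Gabrr2, the transporter Slc6a13, the breakdown enzymes Abat and Aldh5a1, and the GABA-forming enzymes Gad1 and Aldh9a1. They were taken by symbol, and all 9 were among the 24346 gene symbols listed for each of 8 RNA sequencing libraries. Every library came from mesenchymal cells of mouse large intestine, sorted as CD45-, EpCAM-, CD31-, gp38+, high for PDGFRα and negative for Ly6C. There were 3 libraries from C57BL/6 cells at 6 h of 1 mM GABA with 20 mM taurine and 3 at 0 h of the same treatment, for which no age is labelled. There was 1 library from untreated Foxl1cre; Cxcl12 flox/flox cells, called the conditional knockout, and 1 from untreated Cxcl12 flox/flox cells, the control, for which neither strain nor age is labelled. Foxl1-Cre deletes the floxed chemokine gene Cxcl12 in Foxl1-expressing cells, so the controls carry the floxed allele too. Whether the GABA-taurine cells were cultured, and whether animals were pooled, is not stated in the labels. No untreated 6 h library was analysed here, so time and treatment cannot be told apart.

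GABA is the main inhibitory transmitter of the adult brain and is also made by gut bacteria and by some cells outside the nervous system. It opens GABA-A receptors, which are chloride channels of several subunits around a pore, and it signals through the G protein-coupled GABA-B receptor, in which Gabbr1 binds GABA and Gabbr2 couples to the G protein. Transporters of the Slc6 family take GABA up with sodium and chloride, and Slc6a13 and Slc6a6 also carry taurine. In mitochondria Abat, the GABA transaminase, turns GABA into succinic semialdehyde, which Aldh5a1 oxidises to succinate. GABA is formed from glutamate by Gad1 and Gad2, or from putrescine by a route that ends in an aldehyde oxidation for which Aldh9a1 is one enzyme.

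Cxcl12 itself stood at 739.7 FPKM in the conditional knockout library and 1298 FPKM in the control library, 57.0% of the control value, and at 945.5 to 969.4 FPKM at 6 h and 860.4 to 916.1 FPKM at 0 h. FPKM are fragments scaled by transcript length and by the mapped fragments of a library. The markers of the gate were present, with Pdgfra from 152.3 to 227.3 FPKM and Pdpn, which encodes gp38, from 91.7 to 303.7 FPKM over the 8 libraries. Other mesenchymal genes differed widely between the library sets. Col1a1, Col3a1 and Dcn averaged 164.1, 123.9 and 321.6 FPKM in the GABA-taurine libraries and 1308, 3895 and 5979 FPKM in the genotype libraries. Foxl1 stood at 11.6 FPKM in the conditional knockout and 10.2 FPKM in the control library and below 1 FPKM in all 6 GABA-taurine libraries. Markers of cells that the gate should remove were present in the genotype libraries, and Ly6c1, a gene for Ly6C, in all 8. Ly6c1 stood at 89.6 FPKM in the conditional knockout and 140.9 FPKM in the control library. Its values were 12.1 to 12.4 FPKM at 6 h and 8.76 to 10.5 FPKM at 0 h. The summed FPKM of 8 leukocyte markers was 228.3 in the conditional knockout and 194.7 in the control library, against 2.69 to 6.81 at 6 h and 0.782 to 9.59 at 0 h. In bulk libraries fewer cells of a type and less RNA per cell cannot be told apart. Between 14818 and 14974 genes had a value above 0 in the GABA-taurine libraries and 20874 to 21006 in the genotype libraries. Read numbers per library are unknown, so values carry no counting interval.

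That last difference bears on how a level near 1 FPKM reads in the genotype libraries. Olfactory receptor genes, a family of the nose that was looked at after the values were seen, served as a scale. Of 1102 such genes, 79.4% in the conditional knockout and 78.9% in the control library had a value above 0, and 34.1% and 41.9% stood at or above 1 FPKM there. In the GABA-taurine libraries 0.817% to 1.45% had a value above 0 and at most 0.0907% reached 1 FPKM. A member between 1 and 2 FPKM in a genotype library therefore lay among the values of many olfactory receptor genes, while 1 FPKM in a GABA-taurine library lay above nearly all of them. What gave the olfactory receptor genes their values was not tested.

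Among the GABA-B subunits, Gabbr1 was present in every library while Gabbr2 was below 1 FPKM in all 8. Gabbr1 (chromosome 17 from 37045966 to 37075067, GRCm38, plus strand) stood at 1.44, 1.45 and 1.78 FPKM in the 6 h libraries, against 1.40, 1.29 and 1.26 FPKM in the 0 h libraries. All 3 values at 6 h lay above the 3 at 0 h. The means were 1.56 ± 0.192 FPKM at 6 h and 1.32 ± 0.0738 FPKM at 0 h (SD, n = 3 each), and the log2(FPKM + 1) difference of 0.14 (SE 0.17, adjusted p = 0.853, limma) did not pass. Gabbr1 stood at 4.29 FPKM in the conditional knockout and 4.03 FPKM in the control library, where 3.63% and 6.08% of olfactory receptor genes were as high. Gabbr2 (chromosome 4 from 46662305 to 46991873, minus strand), the partner without which Gabbr1 is not known to form a working receptor at the cell surface, was listed at 0 in all 6 GABA-taurine libraries. It stood at 0.125 FPKM in the conditional knockout and 0.314 FPKM in the control library, values that 78.9% and 63.0% of olfactory receptor genes reached.

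Aldh9a1 and Gabbr1 were the 2 members averaging 1 FPKM or more across all 8 libraries that were at least 2-fold lower on log2(FPKM + 1), without overlap, in the GABA-taurine libraries. They are shown by the 250 bases before their RefSeq transcription start (GRCm38.p6). The windows are chr1:167349741-167349990 for Aldh9a1 and chr17:37045716-37045965 for Gabbr1, both on the plus strand and written 5′ to 3′, with capitals where a script found a CCAAT box (CCAAT) or a GC box (GGGCGG) on either strand.
Aldh9a1: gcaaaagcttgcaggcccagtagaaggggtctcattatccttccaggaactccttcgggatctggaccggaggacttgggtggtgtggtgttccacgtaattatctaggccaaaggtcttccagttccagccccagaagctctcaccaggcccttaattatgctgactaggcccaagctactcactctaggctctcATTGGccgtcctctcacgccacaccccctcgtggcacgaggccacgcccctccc
Gabbr1: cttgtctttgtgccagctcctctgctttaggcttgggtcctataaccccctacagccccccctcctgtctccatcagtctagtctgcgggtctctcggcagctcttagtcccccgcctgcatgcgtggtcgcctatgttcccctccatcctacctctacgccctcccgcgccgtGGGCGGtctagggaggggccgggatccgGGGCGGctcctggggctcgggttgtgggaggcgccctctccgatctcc
Gabbr1 held 2 GC boxes and no CCAAT box, and Aldh9a1 held 1 CCAAT box and no GC box, while neither held a TATA box (TATAAA). Of 32817 windows of this length before RefSeq starts, 32.7% held a GC box, 33.8% a CCAAT box and 12.4% a TATA box. The window of Gabbr1 had 66.0% G and C with 16 CpG, and that of Aldh9a1 57.6% with 8 CpG, beside medians of 52.4% and 6 CpG. Promoter windows were found for 8 of the 9 members.

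Of the GABA-A subunits, Gabrr2 was the one above 1 FPKM in all 8 libraries. Gabrr2 (chromosome 4 from 33062999 to 33095865, plus strand) encodes a rho subunit, a kind that can form channels from rho subunits alone and was first known from the retina. It stood at 3.96, 2.47 and 2.39 FPKM at 6 h, against 2.39, 1.51 and 1.68 FPKM at 0 h. The groups did not overlap, but by a narrow margin, since the lowest 6 h value was 2.393 and the highest 0 h value 2.388 FPKM. The means were 2.94 ± 0.885 FPKM at 6 h and 1.86 ± 0.466 FPKM at 0 h (SD, n = 3 each). The log2(FPKM + 1) difference of 0.45 (SE 0.19, 95% interval 0.03 to 0.87) had an unadjusted p of 0.0379 and an adjusted p of 0.493 in limma. In the genotype libraries Gabrr2 was 1.08 FPKM in the conditional knockout and 1.73 FPKM in the control, levels that 31.0% and 25.1% of olfactory receptor genes also reached.

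Gabra3 (chromosome X from 72432681 to 72656848, minus strand), an alpha subunit of heteromeric GABA-A receptors, was below 1 FPKM in all 6 GABA-taurine libraries. Its values were 0.348, 0.0441 and 0.349 FPKM at 6 h, against 0.137, 0.573 and 0.457 FPKM at 0 h, and the groups overlapped. It stood at 1.124 FPKM in the conditional knockout and 1.63 FPKM in the control library, levels that 28.4% and 26.6% of olfactory receptor genes reached. Of the 19 GABA-A subunit genes, Gabrr2 alone averaged 1 FPKM or more in the GABA-taurine libraries, whereas 7 did in the genotype libraries. Among all 24346 genes listed, 10910 averaged that much in the GABA-taurine libraries and 14949 in the genotype libraries. Of olfactory receptor genes, 34.1% in the conditional knockout and 41.9% in the control library stood at or above 1 FPKM. Gabra3, Gabra5, Gabrb1, Gabrb2, Gabrq and Gabrr2 were among the 7 GABA-A subunit genes. Gabrb2, a beta subunit, was highest at 3.44 FPKM in the conditional knockout and 3.70 FPKM in the control library, against at most 0.112 FPKM in the GABA-taurine libraries. Still 5.26% and 6.99% of olfactory receptor genes were as high as Gabrb2 in those 2 libraries. Gabra2, Gabra5, Gabra6, Gabrp, Gabrr1 and Gabrr3 were listed at 0 in every GABA-taurine library.

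**Figure D1:**
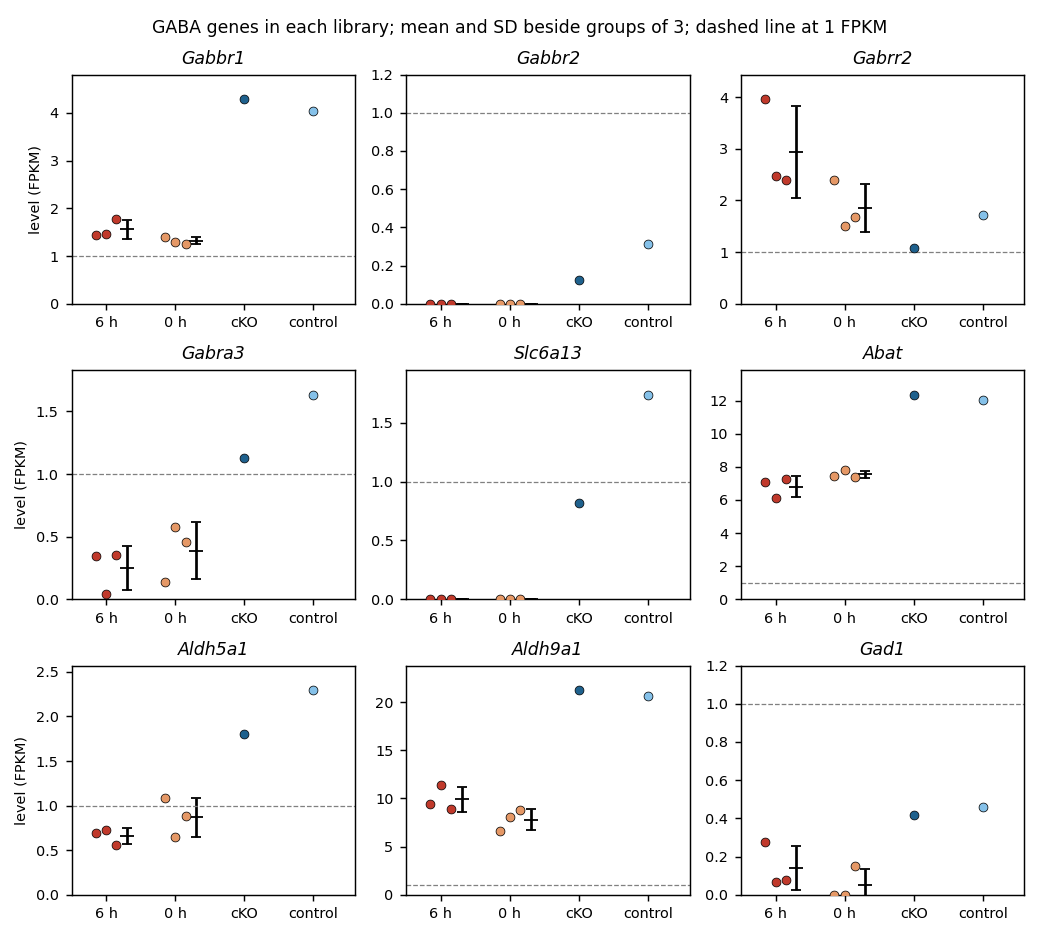
Level in FPKM (vertical axis, linear, its range set for each gene) of the 9 genes in the 3 libraries at 6 h, the 3 at 0 h, the conditional knockout (cKO) and the control; points are libraries, black bars are mean and SD of 3, and the dashed line is 1 FPKM. Abat, Aldh9a1, Gabbr1 and Gabrr2 lie above the line in all 8 libraries, Gabbr2 and Gad1 below it in all 8, and Gabbr2 and Slc6a13 are at 0 in every 6 h and 0 h library.

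The transporter Slc6a13 (chromosome 6 from 121300227 to 121337733, plus strand), which takes up GABA and taurine and is best known from liver, kidney and the brain's coverings, was listed at 0 in all 6 GABA-taurine libraries. It stood at 0.816 FPKM in the conditional knockout and 1.74 FPKM in the control library, below 1 FPKM in 7 of the 8 libraries in all. Those 0.816 and 1.74 FPKM were levels that 40.7% and 25.0% of olfactory receptor genes reached. The taurine transporter Slc6a6, which can also carry GABA, was the highest gene of the transport list. It stood at 21.3, 18.6 and 20.9 FPKM at 6 h, against 20.3, 25.0 and 23.1 FPKM at 0 h, and at 20.4 FPKM in the conditional knockout and 20.0 FPKM in the control library. The 6 h and 0 h values overlapped, and the log2(FPKM + 1) difference of -0.16 (adjusted p = 0.657, limma) did not pass. Slc6a11, a GABA transporter of astrocytes, was the transporter that differed most between the library sets. It stood at 15.996 FPKM in the conditional knockout and 15.9 FPKM in the control library, a level that 0.0907% of olfactory receptor genes reached, and was listed at 0 in 5 GABA-taurine libraries and at 0.0138 FPKM in the other. Slc6a12, a betaine and GABA transporter, did not exceed 0.404 FPKM in any library, and the vesicular GABA transporter Slc32a1 was listed at 0 in all 8. The proton-coupled amino acid transporter Slc36a1 ranged from 1.69 to 2.17 FPKM in the GABA-taurine libraries and stood at 1.41 FPKM in both genotype libraries.

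Of the breakdown enzymes, Abat was well above 1 FPKM in every library. Abat (chromosome 16 from 8513429 to 8621568, plus strand) stood at 7.05, 6.09 and 7.28 FPKM at 6 h, against 7.46, 7.80 and 7.39 FPKM at 0 h. All 3 values at 6 h lay below the 3 at 0 h. The means were 6.81 ± 0.630 FPKM at 6 h and 7.55 ± 0.219 FPKM at 0 h (SD, n = 3 each), and the log2(FPKM + 1) difference of -0.13 (SE 0.12, 95% interval -0.39 to 0.12, adjusted p = 0.782, limma) did not pass. Abat stood at 12.4 FPKM in the conditional knockout and 12.01 FPKM in the control library. Aldh5a1 (chromosome 13 from 24907579 to 24937661, minus strand), the next enzyme of the route, was lower than Abat in every library. It stood at 0.696, 0.723 and 0.560 FPKM at 6 h, against 1.08, 0.644 and 0.878 FPKM at 0 h, and at 1.80 FPKM in the conditional knockout and 2.30 FPKM in the control library. In the genotype libraries 16.4% and 18.1% of olfactory receptor genes were as high as Aldh5a1. The 6 h and 0 h values overlapped, and 5 of these 6 libraries were below 1 FPKM. Annotated genes on the other strand overlap Aldh5a1, Gad1, Gabra3 and Slc6a13 (for Gabra3 and Slc6a13 small RNA genes or a pseudogene), and libraries of this kind do not mark strand, so reads of the overlapping genes cannot be told apart. The highest gene of the breakdown list was Suclg1, a subunit of succinyl-CoA ligase. It averaged 78.8 ± 1.53 FPKM at 6 h and 79.9 ± 6.55 FPKM at 0 h (SD, n = 3 each). The lowest by mean was Adhfe1, at 0.451 FPKM at 6 h and 0.473 FPKM at 0 h.

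Of the GABA-forming enzymes, Aldh9a1 was the highest of the 9 members by mean in every group, and Gad1 stayed below 1 FPKM in all 8 libraries. Aldh9a1 (chromosome 1 from 167349991 to 167368532, plus strand) oxidises γ-aminobutyraldehyde to GABA and also serves carnitine synthesis. It stood at 9.47, 11.4 and 8.85 FPKM at 6 h, against 6.61, 8.02 and 8.76 FPKM at 0 h. The groups did not overlap, with the lowest 6 h value just above the highest 0 h value. The means were 9.89 ± 1.31 FPKM at 6 h and 7.80 ± 1.09 FPKM at 0 h (SD, n = 3 each), and the log2(FPKM + 1) difference of 0.31 (SE 0.13, 95% interval 0.02 to 0.60) had an unadjusted p of 0.0363 and an adjusted p of 0.486 in limma. Aldh9a1 stood at 21.2 FPKM in the conditional knockout and 20.6 FPKM in the control library. Gad1 (chromosome 2 from 70553072 to 70602014, plus strand), glutamate decarboxylase, stood at 0.276, 0.0684 and 0.0775 FPKM at 6 h, against 0, 0 and 0.150 FPKM at 0 h, and at 0.419 FPKM in the conditional knockout and 0.459 FPKM in the control library. In the genotype libraries 58.3% and 62.0% of olfactory receptor genes were as high as Gad1. Its paralog Gad2 was also below 1 FPKM everywhere, with 0.380 FPKM in the conditional knockout, 0.915 FPKM in the control and at most 0.0108 FPKM elsewhere.

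The order of the members by mean was the same at both times. At 6 h it ran from Aldh9a1 through Abat, Gabrr2, Gabbr1 and Aldh5a1 to Gabra3 and Gad1, with Gabbr2 and Slc6a13 at 0. Of these neighbours Gabra3 and Gad1 overlapped, as did the genes at 0. At 0 h the order was the same, but Aldh9a1 and Abat overlapped as well, as did Gad1 and the genes at 0. In the conditional knockout and in the control library Aldh9a1, Abat, Gabbr1 and Aldh5a1 came first in that order.

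In the test across all genes, none of the members passed between 6 h and 0 h. On log2(FPKM + 1) limma called 60 of 10910 genes that averaged 1 FPKM or more (0.55%) at an adjusted p under 0.05, 26 higher (0.238%) and 34 lower (0.312%) at 6 h. Abat, Aldh9a1, Gabbr1 and Gabrr2 were the 4 members tested, and 0 of them were called. Of these 4, 2 had an unadjusted p under 0.05, Aldh9a1 and Gabrr2, beside 9.38% of all genes tested. Aldh5a1, Gad1 and Gabra3 fell under the filter. In the limma fit without it 0 of 17119 genes passed (0.0%) and 1322 had an unadjusted p under 0.05 (7.72%), and these 3 genes had log2(FPKM + 1) differences of -0.17, 0.12 and -0.15 with adjusted p-values of 0.805, 0.824 and 0.848. Gabbr2 and Slc6a13, listed at 0 in all 6 libraries, could not be fitted. The 6 h and 0 h values did not overlap for all 4 members tested, 3 of them higher and 1 lower at 6 h, beside 15.3% of all genes tested (7.25% higher and 8.01% lower). For a single gene the exact two-sided permutation test cannot go below p = 0.1 with 3 libraries against 3, and each of these 4 genes gave that value. Nothing in the labels ties the 3 replicates to separate animals or cultures, and the p-values then cover the spread between these libraries alone, which may be technical.

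The rest of the GABA pathway gave no call either. A wider list of 66 genes (the members, all other receptor subunits, receptor partners, synthesis, transport, breakdown, glutamate supply and chloride carriers) had 30 genes tested. In limma 0 of these 30 passed at an adjusted p under 0.05. An unadjusted p under 0.05 was reached by 7 of the 30, a larger share than the 9.38% of all genes tested. The list as a whole was not tested. Their median log2(FPKM + 1) difference was -0.02, beside -0.00185 over all genes tested, with 13 positive and 17 negative. Beside Aldh9a1 and Gabrr2 the 7 held genes of polyamine, glutamate and chloride handling. Odc1, which makes putrescine, had the smallest adjusted p of the list at 0.314 and averaged 357.1 ± 19.7 FPKM at 6 h and 399.2 ± 2.998 FPKM at 0 h (SD, n = 3 each). Slc12a2, the carrier that brings chloride into cells, averaged 4.57 ± 0.342 FPKM at 6 h and 6.04 ± 0.462 FPKM at 0 h (SD, n = 3 each; adjusted p = 0.419, limma). The others were Sat1, Glul and Glud1, with adjusted p-values of 0.497, 0.419 and 0.393. Gabarap, named for its binding to a GABA-A receptor subunit, was the highest receptor partner at 150.3 ± 4.96 FPKM at 6 h and 150.7 ± 14.8 FPKM at 0 h (SD, n = 3 each). Got2, the highest gene of glutamate supply, averaged 132.2 ± 5.61 FPKM at 6 h and 140.3 ± 5.62 FPKM at 0 h, and Slc12a4, the highest chloride carrier, 101.9 ± 4.63 FPKM at 6 h and 108.0 ± 2.17 FPKM at 0 h (SD, n = 3 each). Over the same comparison the summed FPKM of 9 enteric neuron markers ran from 20.2 to 23.6 at 6 h and from 19.7 to 25.2 at 0 h, most of it Uchl1 and Ret, with Chat at 0 in every library. The sum of 5 enteric glia markers stayed below 1 FPKM in each of the 6 libraries. That of 10 epithelial markers ran from 2.92 to 5.11 at 6 h and from 1.51 to 1.81 at 0 h, and its part in the members' values was not tested. Of these markers Krt8 averaged 2.06 FPKM at 6 h and 0.396 FPKM at 0 h (adjusted p = 0.0319, limma). Phgr1, Muc2 and Krt20 had lower means at 6 h, and Chga was at 0 throughout.

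**Figure D2:**
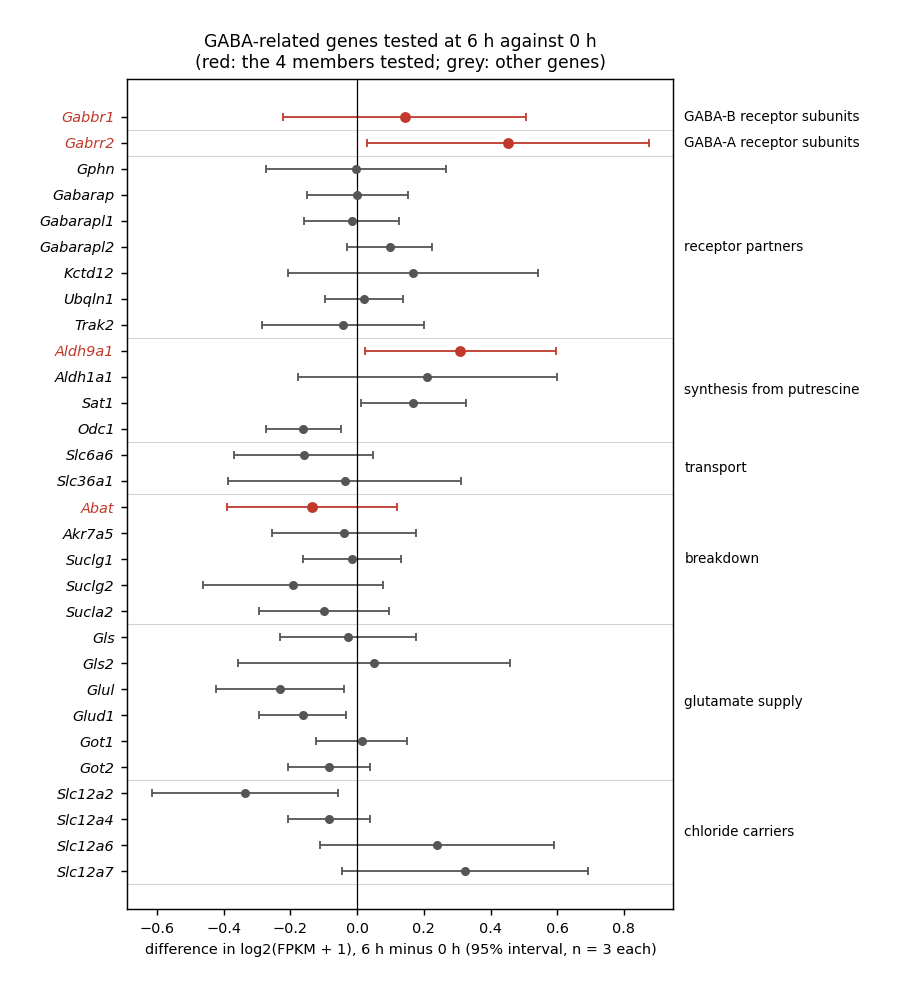
Difference in log2(FPKM + 1) between 6 h and 0 h (horizontal axis, 6 h minus 0 h) with its 95% interval from limma, for the 30 tested genes of the wider GABA list, grouped by role. The 4 members are red: Aldh9a1 and Gabrr2 lie right of 0 with intervals of 0.02 to 0.60 and 0.03 to 0.87, and the intervals of Abat and Gabbr1 include 0.

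Between genotypes, with 1 library each and so no replicate check and no test, none of the members above a mean of 1 FPKM was 2-fold apart on log2(FPKM + 1), a scale that damps differences between low values. On that scale, 3.59% of 14949 genes averaging 1 FPKM or more over both libraries were at least 2-fold apart, 1.36% higher and 2.22% lower in the conditional knockout. Of the 9 members 7 had such a mean, and 0 of these were 2-fold apart, with 3 higher and 4 lower in the conditional knockout. Among these 7, Abat, Aldh9a1 and Gabbr1, which had the highest levels, differed least, by 0.04, 0.04 and 0.07 on that scale. Slc6a13 differed most, by -0.59 (-1.09 as a log2 ratio of the deposited values, which is past 2-fold), followed by Gabrr2 (-0.39), Gabra3 (-0.31) and Aldh5a1 (-0.23). Gabbr2 and Gad1, under the filter, differed by -0.22 and -0.04, and the deposited Gabbr2 values by -1.33 as a log2 ratio. The median of the 7 was -0.23, beside 0.04 over all genes. A pseudocount of 0.1 in place of 1 moved Slc6a13 to -1.005, just past 2-fold. It also raised the count of all genes at least 2-fold apart from 536 to 1150. The ratio of the 2 Gabbr2 values, 0.399, was 0.502 times the most frequent ratio of 1842 genes under 0.5 FPKM in both libraries, and 155 of those genes shared it to within 0.01 on the log2 scale. The wider list had 45 genes averaging 1 FPKM or more over both libraries, of which 0 were 2-fold apart, with a median of -0.00192.

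Markers of other cells moved in the same comparison. The summed FPKM of the 10 epithelial markers was 849 in the conditional knockout and 82.0 in the control library, with all 10 higher. For 6 endothelial markers it was 18.9 in the conditional knockout and 41.9 in the control, with 5 lower. For the 9 neuronal markers it was 8.74 in the conditional knockout and 9.92 in the control, and for the 5 glial markers 4.86 and 5.59. Their part in the members' differences was not tested.

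**Figure D3:**
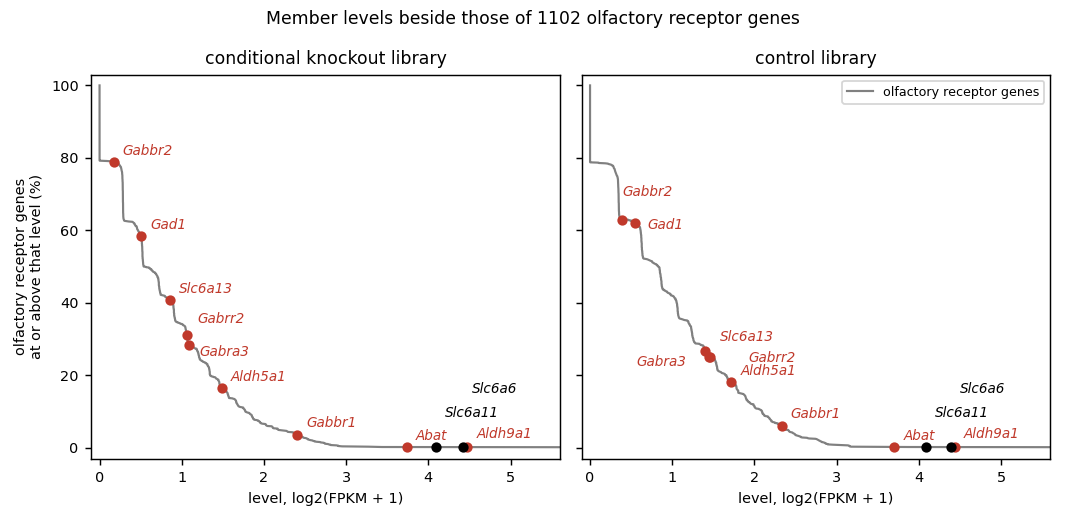
Share of 1102 olfactory receptor genes at or above a given level (vertical axis, percent) against that level in log2(FPKM + 1), in the conditional knockout library (left) and the control library (right); red points are the 9 members and black points Slc6a11 and Slc6a6. Abat, Aldh9a1, Slc6a6 and Slc6a11 lie where at most 0.181% of these genes reach, and Gad1 and Gabbr2 where 58.3% to 78.9% do.

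Set against each other, the GABA-taurine libraries held lower levels of most members than the genotype libraries. The 2 sets differ in strain label, treatment and genotype and may have been normalised separately, so these levels are described without a test. Over 12043 genes that averaged 1 FPKM or more across all 8 libraries, 41.7% were at least 2-fold apart on log2(FPKM + 1) with no overlap between the sets, 19.8% higher and 21.9% lower in the GABA-taurine libraries. Of the 5 members among them 2 were 2-fold lower without overlap and 0 higher, in a comparison where a shift of that size was common. These were Aldh9a1, with a median of 8.81 FPKM (6.61 to 11.4) over the 6 GABA-taurine libraries against 20.6 and 21.2 FPKM, and Gabbr1, with a median of 1.42 FPKM (1.26 to 1.78) against 4.03 and 4.29 FPKM. Their mean levels in the GABA-taurine libraries were 0.422 and 0.345 times those in the genotype libraries. Abat, at 0.589 times the genotype level, and Aldh5a1, at 0.373 times, were also lower without overlap, so that 4 of the 5 were lower and 0 higher without overlap at any size, beside 37.8% lower and 41.3% higher among all genes. Gabrr2 went the other way by mean, at 2.40 FPKM in the GABA-taurine and 1.40 FPKM in the genotype libraries, but the sets overlapped. The direction of Aldh5a1 depended on the scale. By percentile rank among all genes of a library it was higher in the GABA-taurine libraries, at 51.8 to 55.9 against 49.5 and 51.2. Abat, Aldh9a1 and Gabbr1 were lower by rank as well, and Gabrr2 was higher, each without overlap. Gabra3, Gad1, Gabbr2 and Slc6a13, under the filter over 8 libraries, were lower in all 6 GABA-taurine libraries than in both genotype libraries. That was the common pattern among low genes: of 10085 genes under this filter with a value above 0 in some library, 69.3% were lower and 1.0% higher in the GABA-taurine libraries without overlap. A listed 0 in all 6 GABA-taurine libraries with values above 0 in both genotype libraries, as for Gabbr2 and Slc6a13, was shared by 15.5% of all genes listed. Dividing each library by a median-of-ratios factor moved the median difference of all genes to -0.06, against 0.05 as deposited, and turned the direction of none of the 9. Without the filter the median of all genes was -0.37.

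The wider list showed what surrounded the members. Of its 34 genes averaging 1 FPKM or more across all 8 libraries, 10 were 2-fold lower and 4 higher without overlap in the GABA-taurine libraries, beside 21.9% lower and 19.8% higher among all genes, and the median difference was -0.05 beside 0.05 over all genes. In the route from putrescine, Odc1 averaged 378.2 FPKM in the GABA-taurine and 75.6 FPKM in the genotype libraries. Aldh1a1, a retinaldehyde dehydrogenase that also makes GABA in some mouse midbrain neurons, averaged 2.64 FPKM in the GABA-taurine and 188.5 FPKM in the genotype libraries. Maob, a monoamine oxidase of the same route in astrocytes, averaged 0.538 FPKM in the GABA-taurine and 12.9 FPKM in the genotype libraries. Kctd12, an auxiliary subunit of GABA-B receptors, averaged 2.77 FPKM in the GABA-taurine and 8.39 FPKM in the genotype libraries. Aldh1a1, Maob and Kctd12 were chosen after their values were seen. Markers of other cells moved with these differences. The leukocyte, epithelial and endothelial sums were lower in every GABA-taurine library than in both genotype libraries, with the epithelial sum at most 5.11 FPKM and the endothelial sum at most 5.12 FPKM in the GABA-taurine libraries. The enteric neuron sum was higher in every GABA-taurine library, at 19.7 FPKM or more. The part of these markers was not tested.

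**Figure D4:**
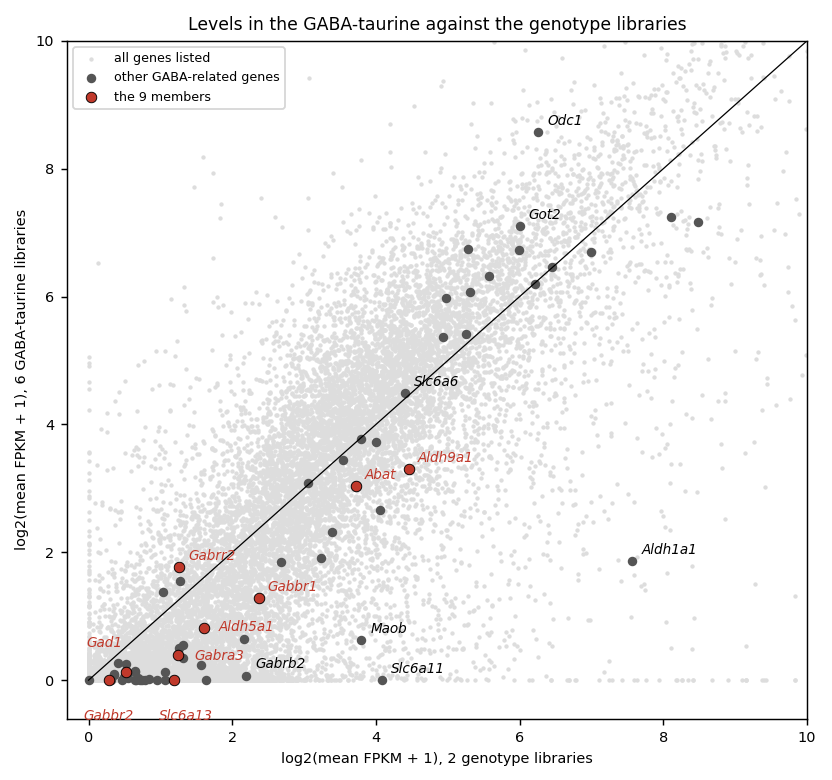
Level as log2(mean FPKM + 1) over the 6 GABA-taurine libraries (vertical) against the 2 genotype libraries (horizontal) for all genes listed (light grey, cropped at 10), the wider GABA list (dark grey) and the 9 members (red); the line marks equal levels. Gabrr2 is the one member above the line, Aldh9a1 and Gabbr1 lie below it with fold ratios of 0.422 and 0.345, and Slc6a11 lies near 0 on the vertical axis at about 15.96 FPKM on the horizontal one.

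The genes whose pattern over the 8 libraries was most like that of a member were found by the mean absolute difference between log2(FPKM + 1) profiles, each centred on its own mean, among 10929 other protein-coding genes that averaged 1 FPKM or more. Closest to Abat were Insig2 and Fam174a, both at 0.05. Closest to Aldh5a1 were Zfp39 (0.05) and Ptgr1 (0.06), to Aldh9a1 Lrrk2 and Elf1 (both 0.07), and to Gabbr1 Bmp1 and Tmem59 (both 0.05). Gabrr2 had no gene as close, with Brf2 and Prkg2 at 0.13. For the first 4 members the difference between the library sets makes up most of the pattern.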

How the data were processed

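Per the file headers, the authors deposited 1 table per library with an FPKM value for each gene symbol. Cuffdiff 2.2.1, TopHat2 2.1.1, SAMtools 0.1.18, Bowtie2 2.2.8 and the mm10 build appear in the submitters' processing notes, which assign them no role. Neither the annotation nor any scaling across libraries is stated. RNA was made into full-length cDNA with a SMART-Seq HT kit and Nextera XT libraries, per the labels' protocols. Total FPKM ran from 513001 to 579004 per library.

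Groups came from the labels. At 6 h against 0 h, log2(FPKM + 1) was fitted with limma 3.58.1 (R 4.3.3) with an intensity trend over genes averaging 1 FPKM or more, with Benjamini-Hochberg adjustment and a threshold of 0.05. The fit was tested on simulated data. The genotypes (1 library each) and the library sets were compared by size only. Same-numbered libraries at 6 h and 0 h did not deviate together (correlations of -0.04, 0.01 and -0.03 across genes), so no replicate block was used. Gene positions are from GENCODE M21 (GRCm38, the build of mm10), and promoters from RefSeq (GRCm38.p6). The members and lists were chosen with earlier results of these data known. Of other genes, the text names by rule GABA-A and GABA-B subunits at a mean of at least 1 FPKM, transporters, the highest gene of each role and the 2 closest patterns per member, and others as marked; a few genes that the rule covers are not reported here. Olfactory receptor genes were matched by symbol. Alternatives were another pseudocount, filters, scaling, no trend, the block and each library left out.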

Additional observations from a re-analysis of the deposited data

How the results depend on the processing

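No member and no gene of the wider list passed at 6 h against 0 h in any of the fits run. Each of the 7 members that could be fitted kept the sign of its difference in the fits it entered, which were 13 for Abat and Aldh9a1, 12 for Gabbr1 and Gabrr2 and 11, without the filter, for Aldh5a1, Gad1 and Gabra3, and adjusted p-values ran from 0.34 to 0.971 (limma). Aldh9a1 ran from 0.21 to 0.39 and Gabrr2 from 0.27 to 0.62 on the log2 scale. The number of genes called among all genes, 60 as reported, was less stable: it was 0 without the intensity trend, 0 without a filter and 2 to 115 with 1 library left out (115 without 0 h replicate 3, 2 without 6 h replicate 2). With the replicate block it was 23, and neither Aldh9a1 (adjusted p = 0.601) nor Gabrr2 (adjusted p = 0.509) passed; the samples share only a number, and 0 of 3 libraries at 6 h correlated best with their own number. Between genotypes the count of members at least 2-fold apart was 1 in place of 0 with a pseudocount of 0.1, which was Slc6a13. With that pseudocount the count over all genes rose as well, from 536 to 1150. Between library sets the count of members was 3 in place of 2 with a pseudocount of 0.1 and without a filter. The count over all genes rose too, from 5022 to 5648 with that pseudocount and to 7559 without a filter. The difference of Gabrr2 shrank to 0.06 between the 0 h libraries and the control library alone. The members below 1 FPKM everywhere were also below 0.5 FPKM everywhere. The read depth is unknown, so values under 1 FPKM carry no counting interval.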
